A study of Mus musculus with 10 samples.

Results

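The alpha and beta crystallins are described here in the mouse retina, as the 8 genes Cryaa, Cryab, Cryba1, Cryba2, Cryba4, Crybb1, Crybb2 and Crybb3, taken by gene symbol from a table of 25905 genes. All 8 were found, 2 of them alpha and 6 beta crystallins. The libraries came from whole retinas of wild-type C57BL/6J mice at postnatal day 34, the right and the left retina of 5 mice numbered 61, 64, 65, 66 and 68. Each mouse had a −20 dioptre lens, which puts the image behind the retina and drives the eye towards myopia, over 1 eye for 10 days from postnatal day 24, and nothing over the other eye. The labels give the side and the mouse but not the eye that carried the lens, so the groups are right retina (n = 5) and left retina (n = 5), and neither is called treated. For the right retina of mouse 64 the labels report a damaged raw file with unequal read numbers.

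Crystallins are the bulk proteins of the lens, packed at high concentration to give it transparency and refractive power. The alpha crystallins belong to the small heat shock proteins and hold unfolding proteins in solution, while the beta and gamma crystallins share a fold of Greek key motifs and serve mainly as structure. Several alpha and beta crystallins are also made outside the lens at much lower levels, and Cryab is known in glia, heart and skeletal muscle. Lens fibre cells in rodents make the gamma crystallins Cryga to Crygf mostly early in life and Crygs later. In whole retinas, fewer cells of a type and less RNA per cell cannot be told apart.

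The stretches just upstream of the start sites are shown for the 4 members on chromosome 5 and for Cryba1. In the main fit described further on, Cryba1 had the largest difference between sides, 1.76 log2 units, close to 1.75 for Cryaa. With a pseudocount of 5 CPM Cryaa came before it, at 1.46 against 1.37. Any part of these stretches in the crystallin levels was not tested. The letters were read from RefSeq on GRCm38.p6, where 7 of the 8 members were listed, all but Cryab. Each line runs 5′ to 3′ on the gene's own strand and ends at the last base before the annotated start or, for Crybb1, before the first annotated exon. Capitals mark the letters TGCTGA or TCAGCA (the half-site bound by Maf transcription factors and its reverse complement), TATAAA or TTTATA (the TATA box), and AACAAT or ATTGTT (a Sox site).
Cryba1, chr11:77725294-77725443, minus strand: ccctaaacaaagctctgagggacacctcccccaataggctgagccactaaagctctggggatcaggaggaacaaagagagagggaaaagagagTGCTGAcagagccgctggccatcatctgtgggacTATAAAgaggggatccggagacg
Cryba4, chr5:112252519-112252668, minus strand: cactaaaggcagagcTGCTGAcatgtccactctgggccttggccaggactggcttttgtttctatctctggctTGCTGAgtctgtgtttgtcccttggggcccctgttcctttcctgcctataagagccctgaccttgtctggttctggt
Crybb1, chr5:112255670-112255814, plus strand: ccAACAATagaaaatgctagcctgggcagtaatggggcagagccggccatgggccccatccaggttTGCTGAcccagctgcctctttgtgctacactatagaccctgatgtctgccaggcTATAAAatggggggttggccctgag
Crybb3, chr5:113081585-113081734, minus strand: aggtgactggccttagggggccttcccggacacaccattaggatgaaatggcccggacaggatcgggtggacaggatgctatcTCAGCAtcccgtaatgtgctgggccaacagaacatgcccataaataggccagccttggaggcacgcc
Crybb2, chr5:113070118-113070267, minus strand: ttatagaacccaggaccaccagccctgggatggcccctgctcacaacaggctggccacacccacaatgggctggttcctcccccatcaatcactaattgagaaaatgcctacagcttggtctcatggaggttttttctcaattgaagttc

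Within the 150 bases before the RefSeq start, 6 of the 7 members held the Maf half-site, against 10.1% of 32851 mouse windows of the same length. Counting back from the start, it began at position −57 in Cryba1, −84 in Crybb1, and −135 and −77 in Cryba4. In Crybb3 and Cryba2 it lay on the other strand, at −67 and −149. Cryaa, whose window reaches into an annotated exon and is not shown, held it at −108 from the RefSeq start. That match lies inside the Cryaa span given further on, so it is not upstream of the gene as annotated there. The Crybb2 window held none of the motifs searched. TATAAA stood in 2 of 7 windows (7.57% of all) and the Sox letters in 1 of 7 (5.31%). The core of the heat shock element, GAANNTTC, which reads the same on both strands, was in 0 of 7 (3.95% of all). No 2 of the capitalised matches overlapped, and a match of letters is a description of sequence, not of binding.

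The unit is CPM, in which counts are set relative to the library total, without division by gene length. By the step between low values, a library held 29690000 to 37260000 counts in the listed genes, with 89.6 to 113.8 of them to 1 CPM. The total behind the CPM was by the same step 89650000 to 113790000 counts. The listed genes summed to only 321661 to 346696 CPM, so they were a part of that total. The smallest of the 80 member values rested on about 36 counts and the largest on about 34680. The counting error of the lowest value of a member was 6.39% (Cryab) to 16.7% (Cryba4). The 10 rod markers, which define the tissue, summed to 12010 to 12570 CPM in right retinas and 11690 to 13710 CPM in left retinas. The left retina of mouse 68 stood apart in skeletal muscle genes (8 of 8 listed, 268.4 CPM summed against at most 33.2 CPM elsewhere), and leaving out mouse 68 gave a median crystallin difference of 1.47 log2 units, with 0 members passing the limma test described further on.

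The 2 alpha crystallins differed in how far they ranged over the libraries. Cryaa, the lens-enriched alpha crystallin (chromosome 17, 31677807 to 31681733, plus strand, GRCm38), measured 18.5, 8.77, 386.8, 41.97 and 17.4 CPM in the right retinas of mice 61, 64, 65, 66 and 68, against 13.5, 21.1, 2.33, 12.5 and 8.55 CPM in their left retinas. The highest and the lowest library were thus the 2 eyes of mouse 65, and the sides overlapped. Cryab, the alpha crystallin that is also made in many other tissues (chromosome 9, 50751325 to 50756636, plus strand), measured 6.43, 4.93, 111.1, 11.7 and 7.90 CPM in the right retinas, against 5.42, 7.17, 2.63, 4.97 and 5.36 CPM in the left retinas of the same mice. Its order of libraries was close to that of Cryaa, with the same library at the top, the same second and the same at the bottom. The range was narrower, 42.2-fold from highest to lowest for Cryab and 166.1-fold for Cryaa. Between the second lowest and the second highest library, which leaves out both eyes of mouse 65, it was 2.37-fold for Cryab and 4.91-fold for Cryaa, and 4.36-fold (Cryba2) to 5.68-fold (Crybb1) for the 6 beta crystallins.

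Among the acidic beta crystallins, Cryba1, whose mRNA encodes both the A3 and the A1 chain from alternative start codons (chromosome 11, 77718615 to 77725283, minus strand), measured 12.1, 6.17, 169.5, 29.5 and 10.9 CPM in right retinas, against 7.03, 9.63, 1.76, 7.40 and 5.63 CPM in left retinas. Cryba2 (chromosome 1, 74889934 to 74893143, minus strand) measured 2.65, 1.16, 46.7, 5.03 and 2.44 CPM in right retinas, against 1.90, 1.71, 0.515, 2.02 and 1.53 CPM in left retinas. Cryba4 (chromosome 5, 112246493 to 112252518, minus strand) measured 3.69, 1.22, 23.2, 5.79 and 2.40 CPM in right retinas, against 2.49, 2.64, 0.386, 1.41 and 1.14 CPM in left retinas. In all 3 genes the right retina of mouse 65 came first, the right retina of mouse 66 second and the left retina of mouse 65 last, and right and left values overlapped.

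The basic beta crystallins gave the same picture. Crybb2, a major beta crystallin of the mature lens (chromosome 5, 113058258 to 113070117, minus strand), measured 7.48, 4.90, 119.7, 18.4 and 7.61 CPM in right retinas, against 6.10, 6.55, 1.19, 4.93 and 4.06 CPM in left retinas. Crybb3 (chromosome 5, 113075839 to 113081584, minus strand) measured 3.32, 1.45, 40.5, 6.60 and 2.47 CPM in right retinas, against 1.97, 2.93, 0.612, 2.19 and 1.42 CPM in left retinas. Crybb1 (chromosome 5, 112255815 to 112269585, plus strand) measured 1.48, 0.826, 18.6, 4.69 and 1.70 CPM in right retinas, against 1.23, 1.45, 0.494, 1.29 and 0.861 CPM in left retinas. Of the 8 genes Crybb1 had the smallest ratio of highest to lowest library, 37.7-fold, but the largest between the second lowest and the second highest. Cryba4 and Crybb1 are divergent neighbours 3296 bases apart, and Crybb2 and Crybb3 stand in tandem 5721 bases apart.

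**Figure D1:**
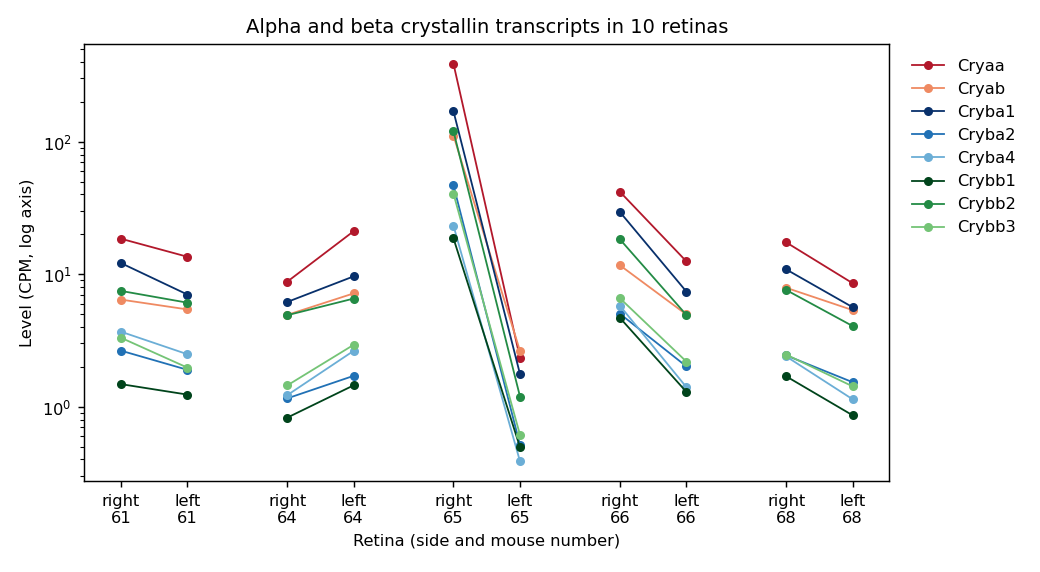
Level of each of the 8 genes (CPM, log axis) in the right and the left retina of each mouse, 1 point per library, with a line joining the 2 eyes of a mouse. The right retina of mouse 65 is highest and the left retina of mouse 65 lowest in all 8 genes, and mouse 64 is the only one of the 5 with lower values on the right.

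Of the members, 3 overlap another gene of the table, and the counting rule for strand is not given in the sources used here. Cryba1 lies within Nufip2, on the opposite strand, which measured 64.6 to 77.2 CPM in all libraries. The start of the Cryab gene overlaps Hspb2, another small heat shock protein gene on the opposite strand, over 1030 bases, and Hspb2 measured 0.0264 to 0.279 CPM. Crybb2 overlaps a pseudogene, Gm43247, that was at most 0.0338 CPM. Cryaa overlaps an annotated antisense gene on the opposite strand over 3927 bases, but that gene is not in the table and has no value here. Reads of a gene and of its partner on the other strand cannot be told apart if strand was not used.

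The summed level of the 8 genes was 916.2 CPM in the right retina of mouse 65, or 0.276% of the CPM of all listed genes, against 9.92 CPM or 0.00305% in its left retina, a 92.4-fold ratio. In mouse 66 the sums were 123.7 CPM on the right and 36.7 CPM on the left, a 3.37-fold ratio. In mice 68 and 61 they were 52.8 and 55.7 CPM on the right, against 28.5 and 39.7 CPM on the left. Mouse 64 went the other way, with 29.4 CPM on the right and 53.2 CPM on the left. Outside the right retinas of mice 65 and 66 the sum therefore lay between 9.92 and 55.7 CPM, and no library was without these transcripts.

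Taken mouse by mouse, the fellow eyes differed in 1 direction across the whole set. In mice 61, 65, 66 and 68 the right value exceeded the left in all 8 genes, and in mouse 64 it was lower in all 8, so each gene was higher in 4 mice and lower in 1. The part of the damaged raw file in the values of mouse 64 was not tested. Of the 14210 genes tested, 13.4% had that count of signs. A difference of at least 2-fold on the log2(CPM + 1) scale was reached on the right by 8 of 8 members in mouse 65, where 0.436% of all tested genes reached it. In mouse 66 it was reached by 8 of 8, where 0.113% of all did. It was reached by 0 of 8 in mouse 68 (0.113% of all) and 0 of 8 in mouse 61 (0% of all). In mouse 64 1 of 8 members, Cryaa, was at least 2-fold lower on the right, against 0.0281% of all. With 1 library per eye there is no replicate check within a mouse. The ratio of right to left in mouse 65 was 37.7 (Crybb1) to 166.1 (Cryaa), in mouse 66 it was 2.35 (Cryab) to 4.12 (Cryba4), in mouse 68 it was 1.47 to 2.11, and in mouse 61 it was 1.19 to 1.73. In mouse 64 the left retina was 1.34 (Crybb2) to 2.41 (Cryaa) times the right.

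**Figure D2:**
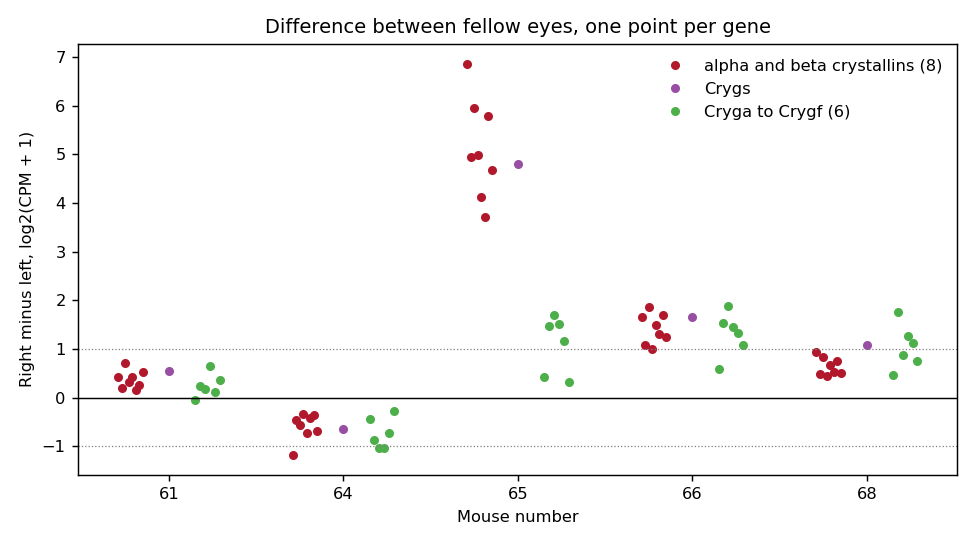
Right minus left in log2(CPM + 1), 1 point per gene, in each mouse, for the 8 alpha and beta crystallins, for Crygs and for Cryga to Crygf. Dotted lines mark a 2-fold difference. In mouse 65 the 8 members lie between 3.72 and 6.86 while Cryga to Crygf stay below 2 on this scale. With a pseudocount of 0.1 CPM, Crygc and Crygd reach 2.80 and 2.34 there, against 4.98 (Crybb1) to 7.32 (Cryaa) for the members. In mouse 68 Crygs, at 1.09, lies above the members, which reach 0.95. Crygb, Crygd and Cryge lie higher still in mouse 68, at 1.77, 1.27 and 1.13.

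Tested over all mice, no member passed right against left. Limma with the mouse as a block called 0 of the 8 members and 0 of 14210 genes (0% called), and the adjusted p was 0.9996 for each member. At an unadjusted p under 0.05 limma had 333 genes, among them 4 of the 8 members, all higher on the right, where 1.53% of all genes had this in that direction. The estimate was largest for Cryba1, at 45.6 ± 69.8 CPM in right retinas and 6.29 ± 2.91 CPM in left retinas (SD, n = 5 each), 1.76 log2 units apart (SE 0.71, with a 95% interval from 0.17 to 3.35). Cryaa stood at 94.7 ± 163.8 CPM on the right and 11.6 ± 6.90 CPM on the left (1.75 apart, SE 0.87, interval −0.19 to 3.69). Crybb2 stood at 31.6 ± 49.5 CPM on the right and 4.57 ± 2.12 CPM on the left (1.63, SE 0.70, interval 0.08 to 3.19). The other 5 had differences from 1.06 (Crybb1) to 1.28 (Cryba2), and the median over the 8 was 1.27, against 0.00 over all tested genes. The spread between right retinas exceeded the difference of the means in each gene, with 1 library holding the high values. All 8 members had a mean of at least 1 CPM, also without the right retina of mouse 65, so none entered the test through that library alone.

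Mouse 65 set the size of these estimates. Without it the differences were 0.47 for Cryaa (interval −0.26 to 1.19), 0.71 for Cryba1 (0.11 to 1.31), 0.59 for Crybb2 (0.06 to 1.13) and 0.33 for Cryab (−0.07 to 0.74), and the median over the 8 members was 0.44. All 8 still lay above 0, and 0 of 8 passed (limma adjusted p = 0.9992 for each). Without mouse 64 the median was 1.72, and again none passed.

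**Figure D3:**
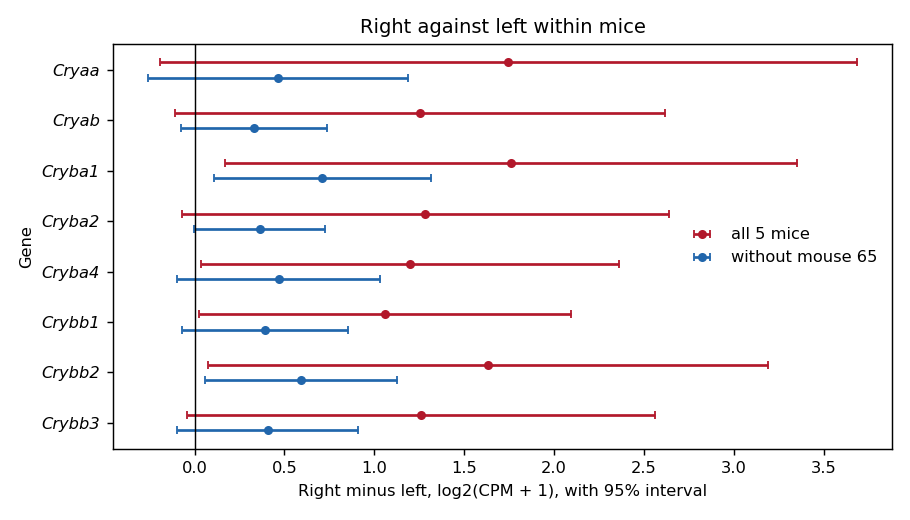
Right minus left in log2(CPM + 1) from limma with the mouse as a block, with 95% intervals, for each gene, in all 5 mice and without mouse 65. The estimates run from 1.06 to 1.76 with all mice and from 0.33 to 0.71 without mouse 65.

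Levels were compared between genes only after division by the length of the longest annotated transcript. Cryaa was then the most abundant member in 9 of 10 libraries, with a median of 12.2 CPM per kb and a range of 1.84 to 305.6. Crybb2 (median 6.98 CPM per kb), Cryba1 (6.19) and Cryab (5.31) followed. Crybb2 was above Cryba1 in 8 of 10 libraries, and with the exon union as length Cryba1 was above Crybb2 in 10 of 10, so these neighbours have no settled order. Cryba4 (3.02), Cryba2 (2.12), Crybb3 (1.64) and Crybb1 (1.56) were lowest. Cryba4 was above Cryba2 in 6 of 10 libraries and Crybb3 above Crybb1 in 6 of 10, and with the exon union Crybb1 was above Crybb3 in 10 of 10.

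The make-up of the set varied far less than its amount. Cryaa made up a median of 30.1% of the 8 genes per kb (range 20.9% to 38.7%), Crybb2 17.4% (14.9% to 20.8%), Cryba1 16.5% (14.4% to 19.9%) and Cryab 13.9% (9.70% to 26.7%). The other 4 had medians of 3.92% to 6.11%. The summed beta crystallins per kb were 0.949 times the summed alpha crystallins in the right retina of mouse 65, and 0.998 to 1.47 times in the other 9 libraries. Over a 92.4-fold range of the sum, the balance of beta to alpha thus moved by less than 2-fold.

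By ratio of highest to lowest share, Cryab varied most, but only through the left retina of mouse 65. Outside that library its share ran from 9.70% to 19.1% and that of Cryba4 from 3.64% to 9.32%, so Cryba4 then varied more. Per kb Cryab was 1.28 times Cryaa in the left retina of mouse 65, the library with the least crystallin RNA and the only one in which Cryab came first. It was 0.316 and 0.326 times Cryaa in the right retinas of mice 66 and 65, the 2 libraries with the most, and 0.385 to 0.710 times in the other 7. The 3 highest ratios, 1.28, 0.710 and 0.637, belonged to the 3 libraries with the lowest sums, the left retinas of mice 65 and 68 and the right of mouse 64. Cryaa is the divisor of the ratio and also a large part of the sum, so the 2 orders are not independent. The left retina of mouse 68 is also the library with 268.4 CPM of skeletal muscle genes, a tissue that makes Cryab, and the part of these in its ratio was not tested. The left retina of mouse 65 had 28.9 CPM of them, of which Ttn alone was 26.96 CPM. Ttn was at 24.9 to 30.1 CPM in every retina but the left of mouse 68. Right minus left per kb of Cryab was 0.205 to 0.326 of that of Cryaa in the 5 mice. At the low end of share, Cryba4 and Crybb1 made up 3.64% and 2.68% in the right retina of mouse 65, against 5.43% and 6.35% in its left retina.

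**Figure D4:**
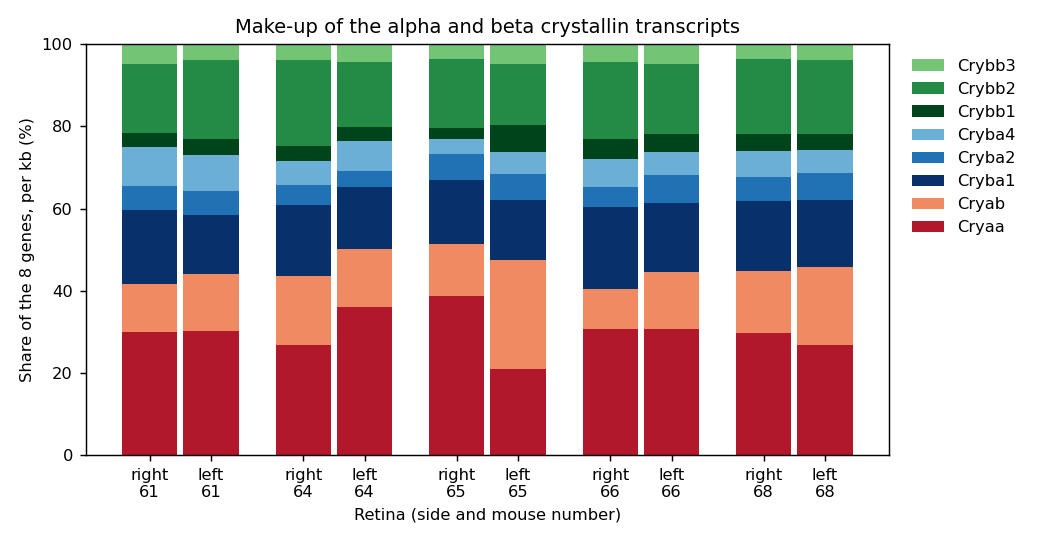
Share of each of the 8 genes in their sum, per kb of longest transcript (%), in the right and left retina of each mouse. Cryaa takes 20.9% to 38.7% and Cryab 9.70% to 26.7%, with the highest Cryab share in the left retina of mouse 65.

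The gamma crystallins Cryga to Crygf separated the 2 libraries with the most alpha and beta crystallin. In the right retina of mouse 66 the 6 genes Cryga to Crygf summed to 1.23 times the alpha crystallins per kb, within the range of the other libraries. In the right retina of mouse 65 they summed to 0.0705 times the alpha crystallins, against 0.512 to 1.62 times in the other 9. Crygb itself measured 7.47 CPM there, against 2.05 CPM in the fellow eye, and 14.4 CPM on the right in mouse 66. Crygs, the late gamma crystallin, moved with the members instead, at 56.2 CPM on the right and 1.05 CPM on the left in mouse 65, and 11.8 and 3.06 CPM in mouse 66, although its ratio to the alpha crystallins per kb was 0.159 in the first library, against 0.210 to 0.326 in the other 9. Crygn, chosen after its values were seen, also went with the members in mouse 65. It measured 2.70 CPM on the right and 0.0215 CPM on the left there, and at most 0.108 CPM in every other retina. Cryga to Crygf are close relatives in sequence, and how reads were shared among them is not given.

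The same split showed in the differences between fellow eyes. Relative to the difference of Cryaa per kb, that of Crygb was 0.0282 in mouse 65 and 0.606 to 1.34 in the other mice. That of Crygd was 0.0163 in mouse 65 and 0.325 to 0.753 in the others. Crygn did not share this split, at 0.0115 in mouse 65 and 0.00174 to 0.0132 in the others, where its level was near the floor. Among the members, the difference of Crybb2 was 0.4305 in mouse 65 and 0.186 to 0.638 in the others, and that of Cryba1 was 0.401 in mouse 65 and 0.258 to 0.943 in the others. Crybb1, Crybb3 and Cryba4 were below the other mice in mouse 65, at 0.0677, 0.0925 and 0.0931, against lowest values of 0.0709, 0.106 and 0.180 elsewhere. These ratios rest on 1 pair of libraries per mouse and were not tested.

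**Figure D5:**
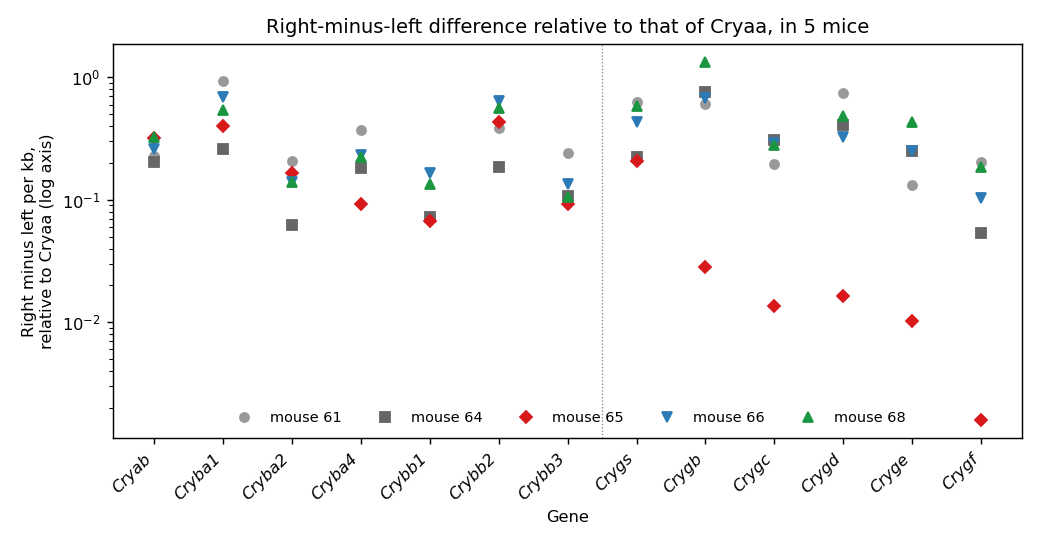
Right-minus-left difference per kb of each gene divided by that of Cryaa in the same mouse (log axis), 1 point per mouse. Beta crystallins and Cryab are left of the dotted line, Crygs and Crygb to Crygf right of it, and Cryga and Crygn are not drawn. Mouse 65 lies among the other mice for Cryab, Cryba1, Cryba2 and Crybb2, under them for Crybb1, Crybb3 and Cryba4 (0.0931, against at least 0.180), and far under them for Crygb to Crygf (0.00158 to 0.0282).

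Lens genes outside the crystallins were measured beside these values. Of 13 on the list 12 were in the table, and they summed to 5.45 to 43.5 CPM in right retinas and 4.85 to 7.92 CPM in left retinas, with the maximum in the right retina of mouse 65. Mip, the lens fibre aquaporin, measured 23.9 CPM right and 0.150 CPM left in mouse 65, and 2.07 and 1.69 CPM in mouse 66. Bfsp1, a lens filament protein gene, stood at 2.69 and 0.322 CPM in mouse 65 and 2.08 and 0.777 CPM in mouse 66. Tmod1, which other tissues also express, was at 2.42 and 2.25 CPM in mouse 65, and Lenep at 1.23 and 1.41 CPM. Of these, Mip moved with the members mainly in mouse 65 and Bfsp1 in both mice, and the part of lens genes in the crystallin values was not tested. The rest of the list, below a mean of 1 CPM, was looked at after its values were seen. In mouse 65 Bfsp2, Lim2, Gja3 and Grifin measured 3.13, 3.02, 3.59 and 2.39 CPM right, against 0.118, 0.0215, 0.0107 and 0.107 CPM left. Lgsn measured 0.970 and 0.344 CPM and Capn3 0.123 and 0.118 CPM, and Birc7 and Dnase2b were at most 0.0558 CPM on either side. The lens list had 0 of 4 tested genes called and a median difference of 0.34, and the gamma crystallin list 0 of 5 and 0.77. Of the 4 lens genes, Mip and Bfsp1 averaged 1 CPM only with the right retina of mouse 65 counted. They thus entered the test through the library where they were highest, and the median of that list rests on it.

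Genes of other tissues that can come with a retina were measured in the same way. Pigment epithelium genes (10 of 10 in the table) summed to 18.8 to 30.7 CPM on the right and 16.2 to 30.6 CPM on the left, and vitreous and ciliary matrix genes (8 of 8) to 58.8 to 93.0 CPM on the right and 47.6 to 88.6 CPM on the left. In mouse 65 they were 30.7 and 90.4 CPM on the right, against 16.2 and 47.6 CPM on the left, the lowest sums of all libraries. Within the vitreous list 3 genes, Optc, Fbn1 and Col18a1, were picked after their values were seen. They were lowest in the left retinas of mice 65 and 68, the 2 libraries with the least crystallin RNA. Col11a1 was also lowest there, at 5.79 and 5.76 CPM, but Vit, Col9a1, Col2a1 and Hapln1 were not. Vit measured 2.25 and 1.97 CPM there, against 1.30 CPM in the left retina of mouse 64. Optc, a proteoglycan of the vitreous, measured 7.515, 15.95, 10.25, 4.95 and 8.47 CPM in the right retinas of mice 61, 64, 65, 66 and 68, against 12.6, 12.3, 0.505, 8.455 and 0.606 CPM in the left (difference 0.89, SE 0.50, limma adjusted p = 0.9996). It was thus higher on the right in mice 65 and 68, as the crystallins were, but lower on the right in mice 61 and 66 and higher in mouse 64, unlike them. Fbn1 and Col18a1, of the extracellular matrix, measured 20.4 and 12.8 CPM right and 6.98 and 4.402 CPM left in mouse 65, and 16.15 and 9.51 CPM right and 8.05 and 3.465 CPM left in mouse 68. Iris and ciliary body (10 of 10) summed to 6.84 to 10.6 CPM on the right and 5.60 to 9.76 CPM on the left, cornea (7 of 8) to 9.35 to 16.0 and 5.68 to 17.6 CPM, fibroblasts (8 of 8) to 18.3 to 23.5 and 13.1 to 17.7 CPM, and blood (6 of 6) to 22.1 to 50.03 and 21.1 to 43.9 CPM. The cornea sum was mostly Ptgds, chosen after its values were seen, at 5.12 to 16.96 CPM over the libraries. Ptgds was also the 1 gene of that list tested, and every other gene of it was at most 0.625 CPM in any library. None of the listed genes was at 0 in every library. Their part in the crystallin values was not tested. Of the tested genes 0 were called in each list, and the median differences were 0.22 for pigment epithelium, 0.20 for vitreous matrix, 0.30 for fibroblasts, 0.14 for iris, 0.35 for the 1 tested corneal gene, −0.07 for blood and −0.65 for muscle, whose sum in mouse 68 was 33.2 CPM on the right and 268.4 CPM on the left. All tested muscle genes but Ttn averaged 1 CPM only with that left retina counted.

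The relatives of the alpha crystallins differed little between sides. The 7 other small heat shock protein genes in the table summed to 11.4 to 13.6 CPM on the right and 11.45 to 13.4 CPM on the left. The 3 tested, Hspb6, Hspb8 and Hspb11, differed by 0.04, −0.03 and −0.01 log2 units, and 0 were called. Hspb1, which like Cryab is induced by stress and was chosen after its values were seen, lay under the filter, with 0.407 CPM right and 0.391 CPM left in mouse 65. Of 15 heat shock and unfolded protein genes 0 were called (median −0.04), with Hsp90aa1 at 0.04, Hspa8 at −0.03 and Hsp90b1 at −0.04. The other members of the stress family were thus near 0 where the alpha crystallins were at 1.75 and 1.25, but a p that misses the threshold does not show that they were equal.

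Transcription factors that act on crystallin genes were likewise not called (0 of 10 tested, median 0.03). Pax6, Prox1 and Meis1, which neurons of the retina also express, differed by −0.02, 0.01 and 0.02. Maf, which binds the half-site searched above and was chosen after its values were seen, measured 8.87 CPM right and 5.24 CPM left in mouse 65, and 4.82 to 6.89 CPM in the other 8 libraries (difference 0.29, SE 0.09, limma adjusted p = 0.9996). Pitx3, a lens factor also chosen after its values were seen, reached 0.268 CPM on the right in mouse 65 and at most 0.0185 CPM elsewhere. Müller glia and astrocyte genes, the retinal cells best known for Cryab, summed to 1075 to 1183 CPM on the right and 1019 to 1227 CPM on the left (0 of 11 called, median 0.04). Ganglion cell genes summed to 231.3 to 258.3 CPM on the right and 227.3 to 272.9 CPM on the left (0 of 10 called, median 0.00), and 0 of 10 rod genes were called (median −0.03).

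The genes whose profile over the 10 libraries was most like the mean of the 8 members were listed by Pearson's r of log2(CPM + 1), as a description only, since the libraries are pairs from 5 mice and mouse 65 holds both extremes. Crygs came first of 14202 genes (r = 0.993). Others of the first 12 were Lama2, Nid1, Sfrp1, Mip, Lix1, Slc7a2, Col6a3, Bfsp1, Tent5c and Dock5, with r from 0.949 to 0.911. Mip, Col6a3, Bfsp1 and Tent5c averaged 1 CPM, the limit for being ranked, only with the right retina of mouse 65 counted. Lama2 and Nid1 encode basement membrane proteins, and Nid1 measured 14.7 CPM right and 1.22 CPM left in mouse 65, against 1.14 to 2.14 CPM elsewhere. Without mouse 65, over 8 libraries, 2 of these 12 were still among the first 12, namely Crygs (r = 0.984) and Bfsp1 (0.943), and Crygd and Cryge entered with r = 0.900 and 0.902. Over 10 libraries Crygd and Cryge had r = 0.627 and 0.544.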

How the data were processed

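Total RNA of 10 retinas was sequenced after removal of ribosomal RNA with a strand-specific kit, per the labels' protocols. The submitters' processing notes name STAR, Partek and the GRCm38 (mm10) build, without versions, counting rule or gene filter. The deposited values are CPM with 0.0001 added by the authors, a unit read from the values: 90.6% to 91.7% of values up to 20 steps were whole multiples of 1 step within a tolerance of 0.1, too few to treat them as reads, so the planned count test was not run. The 0.0001 was subtracted. The 14210 genes averaging 1 CPM or more were fitted as log2(CPM + 1) with limma 3.58.1 (R 4.3.3), right minus left, mouse as a block, variances following the expression trend, two-sided, Benjamini-Hochberg over all tested genes, threshold 0.05. This scale understates changes of low genes. Numbers pair eyes of the same animal; deviations from the side means correlated at 0.143 to 0.607 within pairs. Whether the mice differ by litter is not given, so p-values measure the spread between these animals. The fit was also run on simulated data with known shifts. It called 98 and 86 of 100 genes at the larger and the smaller shift, with 3 false calls. The simulated spread was normal, without the 1 high library that the members show. Ends are 1 base before the deposited stop, as in GENCODE M21 for 8 of 8 members; lengths are from that release. Members, gene lists and tests were chosen with earlier results of these data known. Named beside the members are the 3 most abundant genes of the gamma crystallin, lens, small heat shock, stress and factor lists, the 12 genes most like the members, and genes said to be chosen after their values were seen. Alternatives were other pseudocounts, filters, scaling, no block, each mouse left out, other lengths, and Spearman's rho. A gene of the lens list is not reported here and was left out of that list.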

Additional observations from a re-analysis of the deposited data

Results flagged for a closer look

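In each of the 8 genes the right retina of mouse 65 stood apart from the other 4 right retinas by a gap that took up more than 0.71 of the group's whole range of CPM, the 95% limit of Dixon's test for 5 samples. The gap was 0.912 of the range for Cryaa, 0.936 for Cryab, 0.857 for Cryba1, 0.915 for Cryba2, 0.792 for Cryba4, 0.783 for Crybb1, 0.883 for Crybb2 and 0.868 for Crybb3. These are 8 readings of 1 library and not 8 independent ones. For normally distributed values chance alone flags about 1 in 20 groups. CPM values with 1 high library are skewed, so neither that rate nor the limit need hold here. On the log2(CPM + 1) scale of the fit such a gap takes up less of the range, and the ratio was not computed there. No left retina was marked in this way.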

How the results depend on the processing

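Under 11 other settings of the fit (pseudocounts of 0.1 and 5 CPM, no filter, at least 1 CPM in 5 of the 10 libraries, median-ratio scaling, no replicate block, and each of the 5 mice left out) limma called 0 genes and 0 members in each. All 8 members stayed above 0 in all 11, with Cryaa at 0.47 to 2.48 and Cryab at 0.33 to 1.68. Mouse 65 is the library pair that decides the size, with a median of 0.44 without it. With no replicate block limma still called 0, and 188 genes and 6 members had an unadjusted p under 0.05. With a pseudocount of 0.1 CPM, 2 members in mouse 64 and 2 in mouse 68 passed 2-fold, in place of 1 and 0; the added constant weighs less on low genes there. Median shares moved with the length used: per kb of exon union Cryba1 had 20.7%, Cryba4 8.57%, Crybb1 5.09%, Crybb2 11.4% and Crybb3 3.65%, and from CPM with no length Cryba1 had 19.9%, Cryba2 4.77%, Cryba4 4.34%, Crybb2 13.8% and Crybb3 5.16%. Of the 12 most similar genes 3 were on the lens or gamma lists by Pearson, 4 without mouse 65 and 4 by Spearman, and 2 of the 12 were shared with the first ranking in each of the others. Counting error limits members below about 1 CPM.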
